A study of Mus musculus with 110 samples.

Results

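Ighd1-1 (DFL16.1) is the D gene segment that took the largest share of joins to a JH4 bait in mouse pro-B cells. Its junctions were those on chromosome 12 within 100 bp of position 114734544 in the coordinates of the deposited files, in either orientation, which gave 1853255 of 3602400 junctions (51.4%) in 98 full libraries. It was 1 of 25 D segments with a junction peak, and 1 of 189 junction peaks over the Igh region. Most of its junctions were close to the segment: 97.6% lay within 20 bp, 183 lay at 91 to 100 bp and 120 at 101 to 110 bp, just outside the window.

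An immunoglobulin heavy chain gene is assembled in pro-B cells by first joining a D to a JH segment and then a VH to the DJH join. The RAG recombinase cuts at recombination signal sequences (RSSs), a heptamer and a nonamer separated by a spacer, and the cut ends are trimmed, sometimes extended with added bases, and joined. Cohesin, of which Rad21 is a subunit, extrudes chromatin loops, and CTCF bound to DNA can stop extrusion. IGCR1, a regulatory region with CTCF sites, separates the D array from the VH segments. Ighd1-1 lies at the upstream, VH-facing side of the D array, and Ighd4-1 (DQ52) is the D nearest JH.

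The data were LAM-HTGTS libraries, in which linear amplification from a bait records the sequence, or prey, that the bait has joined. The lines were v-Abl transformed pro-B cells, RAG2 deficient and carrying Emu-Bcl2, which received RAG2 by nucleofection and the Abl kinase inhibitor STI-571 at 3 µM for 4 days. Each of 6 lines was used untreated or with the auxin IAA at 500 µM, begun 6 h before the inhibitor, which triggers loss of a degron-tagged protein where OsTIR1 is present. They were the parental line (labelled WT), a line with an Ostir1 knock in only, a line with CTCF-mAID-GFP tagging only (4 replicates per treatment each), the CTCFdegron line (6 per treatment), the Rad21degron line (3 per treatment) and the IGCR1deleted Rad21degron line (4 per treatment). Pro-B cells of Wild-type 129SV bone marrow, had 6 replicates. Their labels give a sort as B220+CD43+IgM- for replicates 2 to 6 and none for replicate 1, and those of replicates 4 to 6 also list the STI-571 treatment of the lines, so whether these cells met the drug is not settled by the labels. Nothing in the labels said that replicates were separate cultures or animals, so the p-values measure only the spread between these samples, which may be technical. The limma p-values also draw their variance from the other peaks of a fit. Very small ones therefore rest on more than the spread of Ighd1-1 itself. The bait lies in JH4, so the Ighd1-1 share is a share of JH4 joins and not of joins to the other JH segments. A join recorded at a VH counts at that VH, so a D inside it enters neither the Ighd1-1 share nor the D junctions. These shares therefore do not measure all use of the segment. Protein loss was not measured in these libraries.

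Replicates held 1263 to 231023 junctions, a and b libraries of a replicate summed. The IAA groups of both Rad21degron lines were the smallest, at 1263 to 2668. The 95% Wilson half-width of a single library's Ighd1-1 share was at most 1.81 percentage points and covers counting error only. Read names showed 11 sequencing runs, and these are named below where groups differ in them.

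The segment is printed with its 28 flanking bases on each side, since the joints below begin at the D end that faces JH. In mm9, Ighd1-1 is on the minus strand of chromosome 12, and the GENCODE annotation gives it as an immunoglobulin D gene of 23 bases at 114720381 to 114720403. Sequences run 5′ to 3′ on the coding strand, and capitals mark the coding segment. The heptamers are the 7 bases that touch it.
Ighd1-1, chr12:114720353-114720431, minus strand: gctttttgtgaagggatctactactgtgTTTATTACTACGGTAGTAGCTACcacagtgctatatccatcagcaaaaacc
Ighd4-1, chr12:114668711-114668777, minus strand: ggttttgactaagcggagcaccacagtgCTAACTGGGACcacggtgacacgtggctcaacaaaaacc
Ighj4, chr12:114666725-114666817, minus strand: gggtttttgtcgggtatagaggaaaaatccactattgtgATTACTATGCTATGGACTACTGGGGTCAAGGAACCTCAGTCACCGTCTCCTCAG
The heptamer on the JH side of Ighd1-1 was CACAGTG, and that of Ighd4-1 was CACGGTG. The heptamer in front of Ighj4 read TATTGTG. The reads of the study carried the mm9 sequence here: the most frequent prey read that began at the untrimmed end of Ighd1-1 had 0 mismatches over 51 bases, and the most frequent minus-orientation read had 0 mismatches over the 28 flanking bases on the JH side.

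Ighd1-1 was joined more often than all other sites together, on average, in the 3 untreated control lines and in untreated CTCFdegron cells. In untreated parental cells the 4 replicates were at 61.6%, 60.8%, 60.4% and 60.3% of junctions, a mean of 60.8% ± 0.569 (SD, n = 4). In the line with CTCF tagging only, the untreated replicates were at 59.5%, 71.4%, 66.9% and 66.4%, a mean of 66.0% ± 4.88 (SD, n = 4). In the line with OsTIR1 only they were at 60.04%, 60.8%, 46.4% and 54.2%, a mean of 55.4% ± 6.65 (SD, n = 4). Replicates of the parental line lay far closer together than those of the other lines.
Untreated CTCFdegron cells ranged from 53.0% to 72.7% with a median of 61.8%, a mean of 62.3% ± 7.18 (SD, n = 6). Untreated Rad21degron cells were at 45.5%, 43.1% and 48.2%, a mean of 45.6% ± 2.55 (SD, n = 3), and did not overlap the parental replicates.

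With IAA the order of the lines spread out. The parental line was at 55.2%, 52.5%, 51.3% and 51.4% (mean 52.6% ± 1.80, SD, n = 4). The line with CTCF tagging only was at 50.3%, 63.6%, 58.02% and 59.9% (mean 57.95% ± 5.63, SD, n = 4), and the line with OsTIR1 only at 53.0%, 53.4%, 44.8% and 49.2% (mean 50.1% ± 4.03, SD, n = 4). CTCFdegron cells with IAA ranged from 23.2% to 34.2% with a median of 25.3% (mean 27.7% ± 4.96, SD, n = 6). None of their 6 replicates reached any replicate of the untreated lines named so far.
Rad21degron cells with IAA were at 2.85%, 5.39% and 6.72% (mean 4.99% ± 1.96, SD, n = 3). The IGCR1deleted Rad21degron line was at 12.01%, 9.66%, 7.52% and 12.95% untreated (mean 10.5% ± 2.44, SD, n = 4) and at 1.27%, 1.47%, 0.746% and 1.15% with IAA (mean 1.16% ± 0.306, SD, n = 4). Bone marrow pro-B cells ranged from 12.8% to 18.5% with a median of 14.7% (mean 15.2% ± 2.27, SD, n = 6).
Ordered by their means, the first 8 groups, from untreated CTCF-tagged cells at 66.0% down to untreated Rad21degron cells at 45.6%, each overlapped the next. Untreated Rad21degron cells did not overlap CTCFdegron cells with IAA, and these did not overlap bone marrow. Bone marrow overlapped untreated IGCR1deleted cells, which did not overlap Rad21degron cells with IAA, and these lay above IGCR1deleted cells with IAA.

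**Figure D1:**
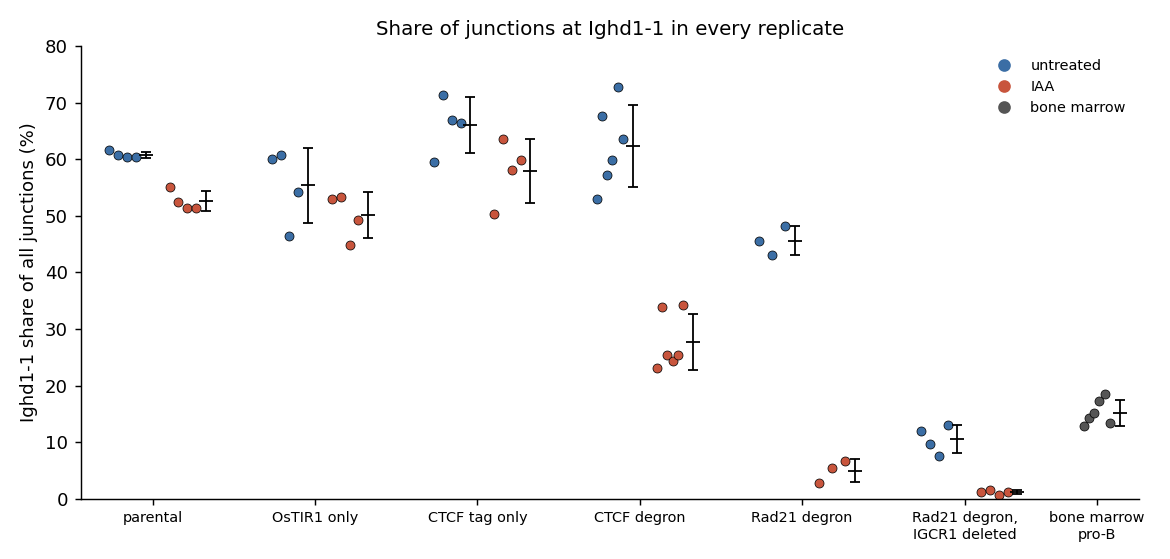
Share of junctions at Ighd1-1 (percent of all junctions, vertical axis) in each replicate of the 13 groups; points are replicates, and the bar beside each group is its mean with 1 SD. CTCFdegron cells with IAA sit between 23.2% and 34.2%, bone marrow between 12.8% and 18.5%, and Rad21degron cells with IAA between 2.85% and 6.72%.

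Among the 25 D segments, Ighd1-1 had the highest mean share in 10 of the 13 groups. It was the second D in untreated IGCR1deleted Rad21degron cells, the third in Rad21degron cells with IAA and the ninth in IGCR1deleted Rad21degron cells with IAA, and Ighd4-1 was the first in all 3 of these groups. The ratio of Ighd1-1 to Ighd4-1 junctions was 8.82 to 12.3 in untreated parental replicates and 2.58 to 3.59 in untreated Rad21degron replicates. With IAA it was 1.74 to 3.31 in CTCFdegron cells, 0.0489 to 0.137 in Rad21degron cells and 0.0137 to 0.0274 in IGCR1deleted Rad21degron cells. Bone marrow replicates lay at 3.39 to 5.11, with low shares of both segments.

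**Figure D2:**
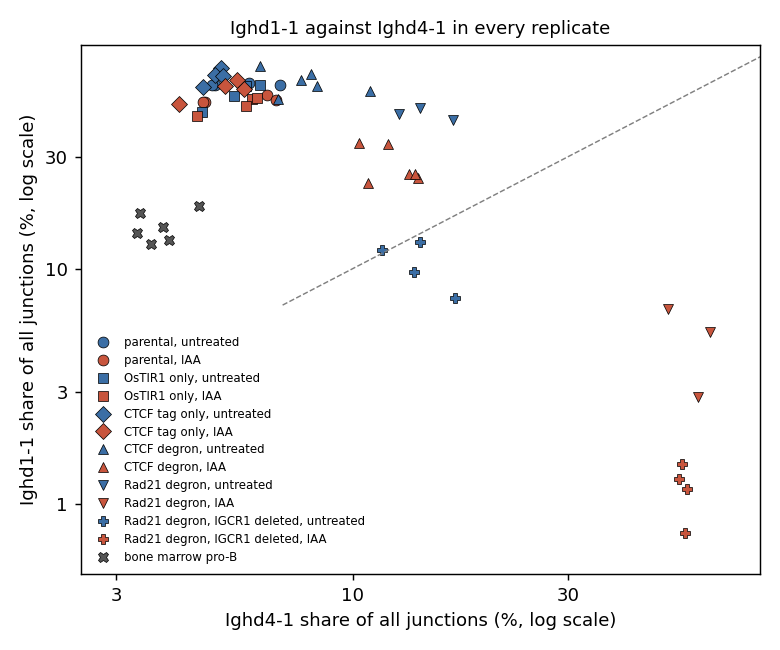
Share of all junctions at Ighd1-1 (vertical) against Ighd4-1 (horizontal), percent on log axes, with 1 point per replicate; the dashed line marks equal shares. Replicates of both Rad21degron lines with IAA lie far to the lower right, with Ighd4-1 at 50.05% to 61.9% and Ighd1-1 at 0.746% to 6.72%, and bone marrow lies to the left.

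IAA in the Rad21degron line went with a 9.14-fold lower share of Ighd1-1. The share went from 45.6% ± 2.55 (SD, n = 3) to 4.99% ± 1.96 (SD, n = 3), and the fitted log2 change was -3.25 (SE 0.45, limma adjusted p 4.45e-07, lower in 3 of 3 same-numbered pairs). Of the 26 peaks tested 65.4% passed the threshold of an adjusted p under 0.05, and the median change over them was -1.33. Untreated replicates held 25046 to 46510 junctions and those with IAA 1263 to 2492. Peaks were kept by their mean tally over both groups, so they could enter through the untreated group alone. The median and the counts passed may in part follow from that. The Ighd4-1 share of all junctions rose by 1.95 (SE 0.28, limma adjusted p 6.92e-07). It is a share of fewer junctions: those at Ighd4-1 numbered 15982 untreated and 3073 with IAA. Among D junctions alone, Ighd1-1 changed by -2.87 (SE 0.35, limma adjusted p 3.43e-04), the largest change in size among the 12 D segments tested, of which 33.3% passed.
Of these 12 D segments, 1 was called higher and 3 lower; with a scale set by the median ratio over the segments, 2 were higher and 1 lower. On that scale over all peaks the Ighd1-1 change was -2.20 (limma adjusted p 1.79e-04). Each of the 3 runs held 1 replicate of each group, and within them the share differed by -42.7, -37.7 and -41.4 percentage points. Against the D segments upstream of Ighd4-1 only, the Ighd1-1 share was 56.0% ± 2.60 (SD, n = 3) untreated and 18.8% ± 1.57 (SD, n = 3) with IAA, without overlap.

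With IGCR1 deleted, IAA in the Rad21degron line went with an Ighd1-1 share of 1.16% against 10.5% untreated, 9.08-fold lower. The log2 change was -3.18 (SE 0.47, limma adjusted p 1.67e-04, lower in 4 of 4 pairs), where 55% of 20 peaks passed. Among D junctions the change was -3.93 (SE 0.37, limma adjusted p 4.79e-06), again the largest in size among the 13 D segments tested, of which 53.8% passed, 1 higher and 6 lower; scaled by the median ratio these were 3 higher and 1 lower and the Ighd1-1 change was -3.21. The difference between both lines in the log2 effect of IAA was 0.01 (SE 0.47, limma adjusted p 0.989; 34.8% of 23 peaks passed). The 95% interval of that difference was -0.97 to 0.98, so equal effects were not shown. Without Rad21degron replicate 3 with IAA, it was -0.43 (limma adjusted p 0.538).

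The IGCR1 deletion itself went with a lower Ighd1-1 share with and without IAA. Without IAA the log2 difference between the IGCR1deleted and the intact Rad21degron line was -2.15 (SE 0.22, limma adjusted p 8.05e-06), where 66.7% of 27 peaks passed. Ighd4-1 was at 0.01 (SE 0.17, limma adjusted p 0.973) in that fit. Among D junctions Ighd1-1 differed by -1.10 (SE 0.20, limma adjusted p 8.35e-05; 61.5% of 13 D segments passed, 7 higher and 1 lower) and by -1.55 when scaled by the median ratio, with 3 higher and 3 lower. With IAA the difference was -1.995 (SE 0.48, limma adjusted p 5.68e-04) over all junctions, where 15.4% of 13 peaks passed. Among D junctions it was -1.90 (SE 0.41, limma adjusted p 2.41e-04), and Ighd1-1 was the only one of 12 D segments called (8.33%). D junctions together were 44.1% to 50.4% of all junctions in untreated IGCR1deleted replicates and 95.7% to 96.0% in untreated Rad21degron replicates. The fits with IAA rest on 101 Ighd1-1 junctions in the IGCR1deleted line and 290 in the intact line. The IGCR1deleted line had b libraries only, whereas a and b were summed in the intact line. Over the alternative settings, b libraries only among them, the difference with IAA over all junctions ranged from -2.21 to -1.71. The lines were never in the same run, so line and run cannot be told apart here.

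IAA in the CTCFdegron line went with a 2.25-fold lower Ighd1-1 share, from 62.3% ± 7.18 (SD, n = 6) to 27.7% ± 4.96 (SD, n = 6), with all 6 pairs lower and no overlap. The log2 change was -1.18 (SE 0.13, limma adjusted p 3.87e-11). Of 79 peaks 84.8% passed, and the median change over them was 2.66, opposite in sign to that of Ighd1-1. Peaks were kept by their mean tally over both groups, so a peak could enter through its high group alone. The median and the share that passed may in part follow from that choice. The Ighd4-1 share rose by 0.65 (SE 0.16, limma adjusted p 2.57e-04). D junctions in total were 89.8% to 95.6% of junctions untreated and 66.4% to 73.7% with IAA.
Among D junctions Ighd1-1 changed by -0.76 (SE 0.13, limma adjusted p 6.88e-08); 93.8% of 16 D segments passed, 14 higher and 1, Ighd1-1, lower. When scaled by the median ratio, 3 D segments were higher and 4 lower, and the Ighd1-1 change was -1.68 over D segments and -3.17 over all peaks. All 12 replicates were in 1 run.

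The lines without a complete degron system had smaller differences with IAA. In the parental line the log2 change was -0.21 (SE 0.04, limma adjusted p 0.00153), lower in 4 of 4 pairs and without overlap, where 29.6% of 54 peaks passed. Among D junctions it was also -0.21 (SE 0.02, limma adjusted p 2.94e-05; 55.6% of 18 D segments passed, 9 higher and 1 lower), and -0.55 on the median-ratio scale with 2 higher and 1 lower. With identical junctions counted once the parental change was -0.14 and did not pass (limma adjusted p 0.639). In the 1 run that held both treatments, with 2 replicates each, the parental share differed by -9.00 percentage points.
With OsTIR1 only, the log2 change was -0.14 (SE 0.13, limma adjusted p 0.538), where 2.5% of 40 peaks passed, and with CTCF tagging only it was -0.19 (SE 0.10, limma adjusted p 0.608), where 0 of 94 peaks passed (0%; 5 had an unadjusted limma p under 0.05). In both of these lines same-numbered replicates deviated together and counted as pairs. In the OsTIR1-only line, replicates 1 and 2 of both treatments came from 1 run and replicates 3 and 4 from another. Pairing and run cannot be told apart in that line. With the replicate number as a block the changes were -0.14 (SE 0.03, limma adjusted p 0.00624) and -0.19 (SE 0.02, limma adjusted p 1.82e-08), 17 of 40 and 20 of 94 peaks passed, and all 4 pairs were lower in each line. Among D junctions the OsTIR1-only change was -0.15 (SE 0.12, limma adjusted p 0.438; 6.67% of 15 D segments passed) and the CTCF-tagged one -0.19 (SE 0.10, limma adjusted p 0.177; 10.5% of 19 passed). With the block these were -0.15 (SE 0.03, limma adjusted p 6.76e-04) and -0.18 (SE 0.02, limma adjusted p 3.99e-08), and 9 of 15 and 12 of 19 D segments passed. Within the 2 runs of the line with OsTIR1 only the share differed by -7.20 and -3.33 percentage points, and within the run of the CTCF-tagged line by -8.08.

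The effect of IAA on Ighd1-1 was larger in CTCFdegron cells than in each of the 3 control lines. The difference in log2 change was -0.97 (SE 0.16, limma adjusted p 2.03e-06) against the parental line, where 70.1% of 77 peaks passed. It was -1.04 (SE 0.18, limma adjusted p 2.03e-05; 64.4% of 73 peaks passed) against OsTIR1 only and -0.996 (SE 0.17, limma adjusted p 1.36e-05; 64.2% of 95 peaks passed) against CTCF tagging only. Scaled by the median ratio the last of these was -2.62. CTCFdegron replicates shared no run with the control lines. The plot of log2 changes by line shows both Rad21degron lines lowest, CTCFdegron cells between, and the 3 control lines close to no change.

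**Figure D3:**
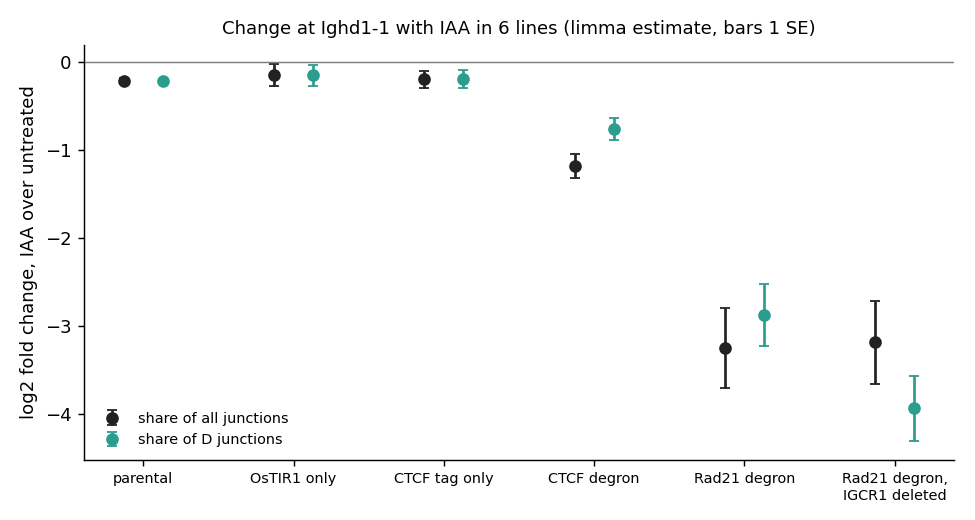
Log2 fold change of the Ighd1-1 share with IAA over untreated, by line; points are limma estimates, bars are 1 SE, black for the share of all junctions and green for the share of D junctions. The control lines lie between -0.21 and -0.14, CTCFdegron at -1.18 and -0.76, and the Rad21degron lines between -3.93 and -2.87.

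Untreated engineered lines were set against the untreated parental line to see where they start. The Rad21degron and CTCFdegron lines shared no run with the parental line, so for them line and run cannot be told apart. Untreated Rad21degron cells had a lower Ighd1-1 share, with a log2 difference of -0.40 (SE 0.06, limma adjusted p 9.33e-06; 68.3% of 41 peaks passed) over all junctions and of -0.45 (SE 0.05, limma adjusted p 8.77e-06; 68.8% of 16 D segments passed) among D junctions. D segments were 9 higher and 2 lower, and 5 higher and 7 lower on the median-ratio scale, where the Ighd1-1 difference among D junctions was -0.99. The call over all junctions was lost with identical junctions counted once (-0.22, limma adjusted p 0.138) and with the median-ratio scale (-0.23, limma adjusted p 0.0710). Ighd4-1 was higher there by 1.45 (SE 0.11, limma adjusted p 1.43e-08). Untreated CTCFdegron cells did not differ from the parental line beyond their spread (0.05, SE 0.13, limma adjusted p 0.817; 52.1% of 48 peaks passed), nor among D junctions (0.05, SE 0.10, limma adjusted p 0.806; 7.14% of 14 D segments passed).
The line with OsTIR1 only was at -0.15 (SE 0.11, limma adjusted p 0.429), where 0 of 44 peaks passed (0%; 2 had an unadjusted limma p under 0.05). In the run both shared, with 2 replicates each, its share differed from the parental one by -10.05 percentage points. The line with CTCF tagging only was at 0.12 (SE 0.08, limma adjusted p 0.228; 46.5% of 71 peaks passed), and at 0.10 among D junctions (SE 0.07, limma adjusted p 0.450; 5.56% of 18 D segments passed). Without its untreated replicate 1, the lowest at 59.5%, it was 0.17 (limma adjusted p 5.08e-04) over all junctions and 0.15 (limma adjusted p 3.18e-05) among D junctions.

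Bone marrow pro-B cells had a lower Ighd1-1 share than every line replicate without IAA that had IGCR1. Against the untreated parental line the log2 difference was -2.04 (SE 0.07, limma adjusted p 9.92e-31). There 95.7% of 161 peaks passed and their median was 5.07. Peaks could enter that fit through bone marrow alone, which may in part set both values. Among D junctions the difference was -1.54 (SE 0.05, limma adjusted p 1.71e-14; 85% of 20 D segments passed, 16 higher and 1 lower, against 6 higher and 6 lower on the median-ratio scale), and with the median-ratio scale it was -3.74 over all peaks and -3.45 over D segments. Bone marrow held 22.9% ± 1.45 (SD, n = 6) of its D junctions at Ighd1-1, against 65.6% ± 0.224 (SD, n = 4) in the untreated parental line. D junctions together were 60.4% to 74.6% of all junctions in bone marrow replicates and 91.7% to 93.7% in untreated parental replicates. Next after Ighd1-1 in bone marrow came Ighd2-3, at 6.51% ± 0.693 (SD, n = 6) of all junctions. A D segment that matched Ighd2-5 was at 6.47%, within that SD, so their order is not settled.
CTCFdegron cells with IAA stayed above bone marrow by 0.89 (SE 0.09, limma adjusted p 3.44e-11; 84.3% of 153 peaks passed) and by 0.77 (SE 0.11, limma adjusted p 1.65e-08; 75% of 20 D segments passed) among D junctions; the median-ratio scale gave 1.97 and 1.75. Bone marrow shared no run with the lines, so run and source cannot be told apart in these comparisons.

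The libraries also gave the exact joint. A joint was read from the end of the bait alignment and the start of the prey alignment; bases between them count as inserted, and bases that both alignments claim count as microhomology and are left with the D in counts of missing bases. The most frequent Ighd1-1 joint to Ighj4 in the lines used a 3-base microhomology, TAC, at the untrimmed D end, with the D on the left, JH4 on the right and the shared bases in capitals.
Microhomology joint: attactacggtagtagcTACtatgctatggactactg
Flush joint: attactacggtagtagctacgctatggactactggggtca
Joint with an inserted base (capital): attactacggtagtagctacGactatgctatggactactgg
The microhomology joint was 6.19% of all plus-orientation Ighd1-1 joints in the lines (111332 joints) and 1.53% in bone marrow (798 joints), where it was also the most frequent joint with microhomology. The flush joint, in which an untrimmed D meets a trimmed JH4, made up 3.48% in the lines and 0.824% in bone marrow. The joint with an inserted G was the most frequent of 133533 distinct joints with insertions in the lines, at 1.29%.

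The share of the microhomology joint varied between replicates of a line. In untreated parental cells it was 4.57%, 4.32%, 8.66% and 9.44% of Ighd1-1 joints, and in untreated OsTIR1-only cells 4.58%, 4.41%, 14.4% and 14.2%. The high values of both lines were replicates 3 and 4, from a run that also held replicates 3 and 4 of both lines with IAA. With IAA these replicates were at 7.025% and 7.615% in parental and 15.7% and 15.4% in OsTIR1-only cells. Replicates 1 and 2 with IAA were at 4.15% and 3.71% in parental and 3.85% and 3.90% in OsTIR1-only cells. Bone marrow replicates held 1.26% to 1.83%. In Rad21degron cells it was 3.06% to 3.46% untreated and 7.84%, 1.47% and 12.4% with IAA, from 51, 68 and 170 joints.

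Trimming of the D end was mostly short. In untreated parental cells 31.5% of plus-orientation joints kept the whole JH-side end of Ighd1-1, 13.3% lacked 1 base and 10.2% lacked 3 bases. In bone marrow 19.5% kept the whole end and 17.1% lacked 3 bases. The median was 2 missing bases in the untreated parental line and 3 in bone marrow. These values pool the replicates of a group. Replicates 3 and 4, both of 1 run, gave 139369 and 135592 of the 294818 parental joints. Mean missing bases were 3.43 and 3.28 in them, against 4.18 and 4.20 in replicates 1 and 2. Joints with no D base left were 1.39% in untreated parental cells, 2.35% in bone marrow and 1.83% over all lines. Over all lines, 93.5% of plus-orientation reads ran through the whole D and its 28-base flank on the VH side, and 94.8% did so in bone marrow.

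**Figure D4:**
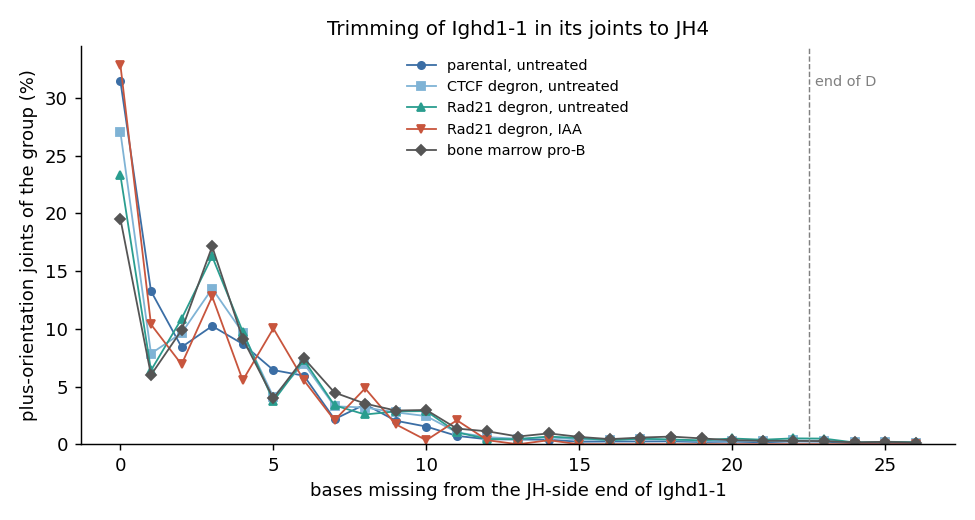
Percent of plus-orientation Ighd1-1 joints of a group (vertical axis, replicates pooled) by the number of bases missing from the D end that faces JH (horizontal axis), for 5 groups; the dashed line marks the end of the 23-base segment. The share at 0 missing bases runs from 19.5% in bone marrow to 32.9% in Rad21degron cells with IAA, which rest on 289 joints, and a second peak stands at 3 bases, from 10.2% to 17.1%.

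Bone marrow joints carried more inserted bases than those of untreated parental cells. Inserted bases were present in 74.1%, 75.1%, 53.4% and 50.2% of joints in the parental replicates (mean 63.2% ± 13.2, SD, n = 4), against 84.5% to 86.1% with a median of 85.6% in bone marrow (mean 85.5% ± 0.655, SD, n = 6). The groups did not overlap; bone marrow was higher by 22.3 percentage points (exact permutation test, two-sided p 0.00476, the smallest possible; 0.0444 after Benjamini-Hochberg adjustment over 28 tests). The microhomology difference was -16.3 points (23.6% ± 9.86, n = 4, against 7.37% ± 0.506, n = 6; exact permutation p 0.00476, adjusted 0.0444). The mean number of missing bases was 4.84 ± 0.171 (n = 6) against 3.77 ± 0.486 (n = 4; exact permutation p 0.00476, adjusted 0.0444). When identical junctions were counted once, the difference was 10.2 points for inserted bases and -5.55 points for microhomology (exact permutation p 0.00476 each), and 0.07 for missing bases (exact permutation p 0.724). Bone marrow and parental replicates shared no run, and the lower parental pair in inserted bases, replicates 3 and 4, came from a different run than the higher one.

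Joints of both Rad21degron lines had fewer inserted bases with IAA in the values, on few joints and without a test that passed after adjustment. In the intact Rad21degron line 80.1%, 81.7% and 80.8% of joints had inserted bases untreated and 68.3%, 57.0% and 63.6% with IAA. The groups did not overlap, and 3 against 3 cannot give an exact permutation p below 0.1, which was the value reached. Microhomology was 10.9% ± 0.564 (n = 3) untreated and 26.4% ± 7.62 (n = 3) with IAA, and missing bases 4.55 ± 0.175 and 3.04 ± 0.474, both without overlap.
In the IGCR1deleted line, inserted bases were in 77.2%, 78.3%, 86.0% and 80.3% of joints untreated and in 61.8%, 66.7%, 50% and 63.6% with IAA, from 34, 33, 12 and 22 joints. That difference of -20.0 points, the 18.1 points of microhomology and the -1.88 missing bases each had an exact permutation p of 0.0286, the smallest possible, and 0.133 after adjustment. Ighd4-1 joints had inserted bases in 82.5% ± 1.05 (n = 3) untreated and 75.9% ± 2.68 (n = 3) with IAA in the intact line, without overlap. Over the other D segments the values were 85.4% ± 0.158 (n = 3) and 64.1% ± 7.26 (n = 3).
In CTCFdegron cells the share with inserted bases was 73.2% ± 5.48 (n = 6) untreated and 76.3% ± 3.41 (n = 6) with IAA (exact permutation p 0.242, adjusted 0.617), and the groups overlapped. In the 3 control lines no difference with IAA in inserted bases, microhomology or missing bases passed, and the lowest exact permutation p among them was 0.314. Parental replicates came from runs that differed in inserted bases, which widens the spread in that test. In the 1 run with both parental treatments, 2 replicates each, inserted bases differed by 9.39 points and microhomology by -6.33. In the paired CTCF-tagged line inserted bases were higher with IAA in 4 of 4 pairs, by 3.45 points, and microhomology differed by -2.41 points, lower in 4 of 4 (exact sign-flip p 0.125 each, the smallest possible). In the paired OsTIR1-only line each was higher in 2 of 4 pairs.

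The spread of the parental and OsTIR1-only lines went with the sequencing run. In untreated OsTIR1-only cells 74.2%, 74.1%, 24.3% and 25.3% of Ighd1-1 joints had inserted bases, and with IAA 76.3%, 76.0%, 21.6% and 20.7%. The low pairs were replicates 3 and 4, from the same run as parental replicates 3 and 4, which were also the lower parental ones at 50.2% to 62.2%. In these 4 OsTIR1-only replicates microhomology reached 49.2% to 55.1% and the mean number of missing bases was 2.40 to 2.58. Ighd4-1 joints with inserted bases ranged from 29.6% to 77.0% in untreated OsTIR1-only cells. The part of the run in these values was not tested. Where inserted bases were rare, Ighd1-1 shares were 44.8% to 54.2% in OsTIR1-only cells, against 53.0% to 60.8% in the other 4 replicates of that line.

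**Figure D5:**
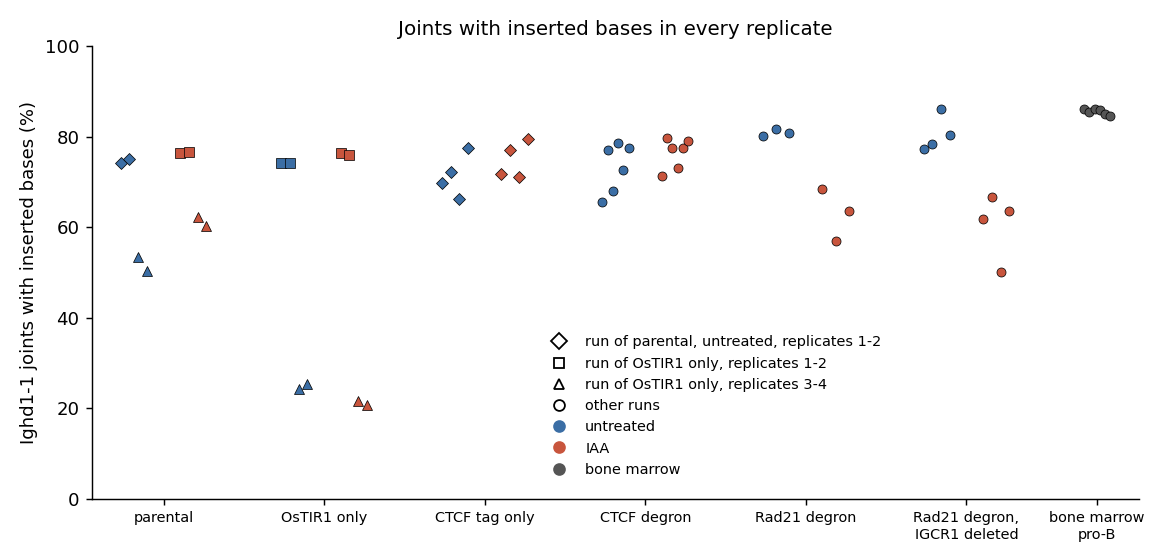
Percent of plus-orientation Ighd1-1 joints with at least 1 inserted base (vertical axis) in each replicate of the 13 groups; colour gives the treatment and marker shape the sequencing run. The triangles, OsTIR1-only and parental replicates 3 and 4, lie between 20.7% and 62.2%, and the replicates 1 and 2 of those lines between 74.1% and 76.6%.

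Nearly all Ighd1-1 junctions were in the plus orientation, that of a deletional D to JH join, in which the prey reads away from JH. Of 1853255 junctions 1732 were in the minus orientation (0.0935%). Among the 11 groups other than both Rad21degron lines with IAA, the minus share ran from 0.0372% in untreated IGCR1deleted cells (2 of 5377) to 0.192% in untreated OsTIR1-only cells, with 0.124% in untreated parental cells and 0.105% in bone marrow. These are pooled over replicates. The untreated OsTIR1-only replicates were at 0.0789%, 0.0479%, 0.313% and 0.257%, and those with IAA at 0.0527%, 0.0504%, 0.203% and 0.197%. Replicates 3 and 4, the high ones, came from the run that also held parental replicates 3 and 4. Rad21degron cells with IAA had 1 of 290 (0.345%), and IGCR1deleted Rad21degron cells with IAA had 0 of 101, which allows a share of up to 2.97%. None of 7 comparisons passed by exact permutation test after adjustment; the lowest raw p was 0.343.
The minus-orientation junctions were not spread over the window. In the lines 1265 of 1677 (75.4%) began in the flank on the JH side, 817 of them at its first base, where the RSS heptamer starts, and the other 412 began inside the D. In bone marrow 33 of 55 began in the flank.

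The a and b libraries of the same replicate were compared for their Ighd1-1 shares. They differ in a stretch of the bait downstream of JH4, which is printed because it tells the 3 kinds of library apart; capitals mark the bases that differ between them.
a libraries: cagaaaactccTcaaaggttaaaa
b libraries: cagaaaactccATAAGGGcaaaggttaaaa
bone marrow: cagaaaactccATAAcaaaggttaaaa
Of reads in which both sides of this stretch were found, 99.9% in a, 99.5% in b and 99.8% in bone marrow libraries had the form shown, and that of bone marrow is the mm9 sequence. The labels do not say what a and b stand for. Over 42 pairs the a share exceeded the b share by 0.122 percentage points on average, from -1.77 to 2.97, and a was higher in 23 pairs. In Rad21degron cells with IAA, where shares are low, a was higher in 3 of 3, at 3.34% against 2.37%, 5.42% against 5.35% and 8.21% against 5.24%.

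The 3 junction peaks whose shares most resembled that of Ighd1-1 over the 13 groups were not annotated segments but sites just upstream of it. Pearson's r of the log2 group means (plus an offset of 0.01%) was 0.937 for a site 1030 bp upstream, 0.932 for one 1986 bp upstream and 0.913 for one 3660 bp upstream in the files' coordinates (3647 bp in mm9), out of 112 peaks compared; the groups share the bait, and the values are a description. The mm9 bases around each joint are shown because the D end is followed by a heptamer starting CAC. Capitals mark the first 3 bases on the JH side of the joint.
Site 1030 bp upstream, chr12:114721399-114721430, minus strand: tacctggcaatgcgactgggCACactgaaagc
Site 1986 bp upstream, chr12:114722355-114722386, minus strand: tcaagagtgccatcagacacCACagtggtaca
Site 3660 bp upstream, chr12:114724016-114724047, minus strand: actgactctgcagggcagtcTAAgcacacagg
The first and the second site have CAC there on the coding strand, and the second the 7 bases CACAGTG. On that strand, the only one searched, 2.38% of positions start with CAC over the 5000 bases upstream of Ighd1-1.
Since the shares of all 13 groups chose these sites, their values are given with no test. The site 1030 bp upstream held 0.506% ± 0.0206 (SD, n = 4) of junctions in untreated parental cells and 0.984% ± 0.111 (SD, n = 4) with IAA, without overlap, while the Ighd1-1 share was lower with IAA there. It held 0.494% ± 0.149 (SD, n = 6) in untreated CTCFdegron cells, 0.107% ± 0.0363 (SD, n = 6) with IAA and 0.197% ± 0.0549 (SD, n = 6) in bone marrow. It held none of the junctions in either Rad21degron line with IAA, where Ighd1-1 itself had only 290 and, with IGCR1 deleted, 101. An absence at this depth says little, and these groups enter the r above at the offset of 0.01%. The site 1986 bp upstream was at 0.269% ± 0.0597 (SD, n = 4) in untreated parental cells and 0.447% ± 0.0371 (SD, n = 4) with IAA, and the site 3660 bp upstream at 0.328% ± 0.109 (SD, n = 4) and 0.329% ± 0.103 (SD, n = 4).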

How the data were processed

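Junction lists of 98 full LAM-HTGTS libraries were used, and 12 off-target libraries were not. Per the labels, reads were aligned to a hybrid AJ851868/mm9 genome, and the submitters' processing notes name Bowtie2 and mm9; versions are not given in the sources used here. The deposited files give 1 line per junction, with alignment positions and other values that were used as the authors left them, with no further filter. Sample sets were formed from titles, which were followed where the treatment label of 4 libraries titled IAA did not name it. The labels list an Abl inhibitor protocol for bone marrow replicates 4 to 6 and no sort for replicate 1. The IGCR1deleted line had b libraries only.

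Libraries held 609 to 116863 junctions. The a and b libraries of a replicate were summed for shares and averaged for joint measures. Junctions were tallied in peaks of at least 100 junctions and compared with limma voom (R 4.3.3, limma 3.58.1). Fits ran over Igh peaks, scaled by all deposited junctions, and over D peaks, scaled by their sum. Peaks were kept if their mean tally, over all replicates of a fit, was at least 10 junctions. Variances were moderated over all tested peaks, with Benjamini-Hochberg adjustment and a threshold of 0.05. The 14 comparisons share groups, the untreated parental one most often. Joint measures were compared by two-sided exact permutation (Python 3.11.15, scipy 1.17.1). Positions were carried to mm9 by aligning read sequence with blastn 2.17.0. The fit was run on simulated tallies in which Ighd1-1 itself was left unchanged, so that run does not cover a change at Ighd1-1. The named sites are the 3 peaks with the highest correlation with Ighd1-1. Same-numbered replicates deviated together in every pair of the OsTIR1-only line (r 0.70 to 0.79) and of the CTCF-tagged line (0.50 to 0.85). Alternatives were other windows, identical junctions once, a or b libraries only, median-of-ratios scaling, no filter, a replicate block and leaving out each replicate. The members and lists were chosen with earlier results of these data known.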

Additional observations from a re-analysis of the deposited data

Results flagged for a closer look

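The effect of IAA on the Ighd1-1 share differed between CTCFdegron cells and each control line, by -0.97 against the parental line, -1.04 against OsTIR1 only and -0.996 against CTCF tagging only on the log2 scale (limma adjusted p 2.03e-06, 2.03e-05 and 1.36e-05). In 3 of 66 sets of replicates 1 replicate stood apart by Dixon's test, where chance gives about 1 in 20. The minus-orientation share of untreated parental replicate 2 was 0.0564%, below the others at 0.120% to 0.132%. Parental replicate 1 with IAA held 59.5% of its D junctions at Ighd1-1, above the others at 56.3% to 56.8%. Untreated CTCFdegron replicate 3 lacked 3.43 bases on average at the D end, below the others at 4.05 to 4.34.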

How the results depend on the processing

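Of the settings that left out no replicate, 398 values kept their direction and side of the threshold, 15 changed sign, 13 lost and 4 gained a call. Of those leaving out 1 replicate the numbers were 505, 35, 8 and 4. The cause was not tested. With identical junctions counted once, the parental IAA change was -0.14 (limma adjusted p 0.639) and -0.15 among D junctions (0.466), Rad21degron against parental untreated was -0.22 (0.138), and the Rad21degron line difference in IAA effect was -0.0063. With median-ratio scaling, Rad21degron against parental untreated was -0.23 (0.0710) and CTCFdegron against parental untreated -0.0079. With the replicate block, the OsTIR1-only change with IAA was -0.14 (limma adjusted p 0.00624) and -0.15 among D junctions (6.76e-04). The CTCF-tagged one was -0.19 (1.82e-08) and -0.18 (3.99e-08). CTCFdegron against parental untreated was -0.0324 and -0.0508 with the block. Same-numbered CTCFdegron and parental replicates shared no run and had a mean r of -0.084, so that block is no known pairing. The Rad21degron line difference was -0.0145 with a 20 bp window, -0.28 with b libraries only and -0.0542 with no filter.

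For joints, identical junctions counted once gave, in bone marrow against parental, -0.0991 points of minus share (exact permutation p 0.0143) and 0.0696 missing bases, with IAA -0.126 missing bases and 0.143 points of microhomology in CTCFdegron cells, -0.210 missing bases in the parental line and 15.4 points of microhomology in the IGCR1deleted line (exact permutation p 0.229). The block gave -0.0116 points of minus share in bone marrow. It gave 1.04 missing bases, 22.6 points of insertions and -16.1 of microhomology there, and -1.88, -20.0 and 18.1 in the IGCR1deleted line. Apart from the minus share, each had an exact sign-flip p of 0.125, the smallest possible. Same-numbered bone marrow and parental replicates shared no run and had a mean r of 0.13, so the block is no known pairing there. A 20 bp window gave -0.812 missing bases in the IGCR1deleted line and 0.00634 in OsTIR1-only cells, and a libraries alone -0.0770 points of minus share in Rad21degron and 0.0109 in CTCFdegron cells.

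Leaving out each replicate gave -0.23 to -0.13 among D junctions for the CTCF-tagged line with IAA, past the threshold without its untreated replicate 1 (limma adjusted p 0.0441). It gave -6.81e-05 to 0.0826 and -0.00915 to 0.0692 for CTCFdegron and 0.0829 to 0.17 and 0.0671 to 0.15 for CTCF-tagged against parental untreated, and -0.43 to 0.32 for the Rad21degron line difference. Minus shares with IAA ranged from -0.0594 to 0.364 points in Rad21degron, -0.0194 to 0.00656 in CTCFdegron, -0.0352 to -0.0101 in parental and -0.0245 to 0.000269 in CTCF-tagged cells, and -0.00882 to 0.0319 in bone marrow against parental. Missing bases ranged from -2.30 to -1.44 in the IGCR1deleted line, -0.109 to 0.197 in parental and -0.349 to 0.257 in OsTIR1-only cells. Insertions ranged from -10.1 to 8.49 points in OsTIR1-only cells, and microhomology from -5.06 to 8.67 there and 11.1 to 22.9 in the IGCR1deleted line. Joint values of the Rad21degron lines with IAA rest on 12 to 171 junctions per replicate.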
